A study of Mus musculus with 12 samples.

Results

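Beige adipocytes form within white fat depots on cold exposure, whereas classical brown adipocytes arise in dedicated brown fat depots from a separate developmental lineage. Both burn fuel to make heat through Ucp1, so that Ucp1 alone does not tell them apart, and panels of identity markers have been proposed for that purpose. Cited1, Tbx1, Tmem26 and Tnfrsf9 are used as markers of beige adipocytes, and Zic1, Lhx8 and Epsti1 as markers of classical brown adipocytes. These 7 genes were taken by symbol from the table of read counts per gene, which lists 23420 genes. The question was whether the markers of either identity changed in inguinal white adipose tissue (iWAT) with cold exposure or with adipocyte HIF2α.

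RNA of iWAT, the subcutaneous fat pad in which beige adipocytes appear, had been sequenced from 12 male C57BL/6 mice aged 10 weeks. Each of the 4 groups held 3 mice. The WT groups had HIF2a loxP/loxP alleles and no Cre, while the HIF2α AKO groups had the same alleles together with Adipoq-Cre, which is active in adipocytes of all depots and leaves the gene intact in other cells of the tissue. For either genotype, 1 group was housed for 1 week at a thermoneutral (TN) 30 °C and the other for 3 days in the cold (4 to 6 °C), so temperature and length of exposure cannot be told apart. No group carried Cre without the floxed alleles. Each library held between 22368316 and 35204631 reads on genes, and levels are given as CPM, the reads of a gene per 1e+06 reads on genes after scaling by TMM.

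The tissue and the labels were checked first. Adipoq, the adipocyte hormone adiponectin, was at 1349 ± 416 CPM in TN WT, 1582 ± 485 in TN HIF2α AKO, 1820 ± 705 in cold WT and 1570 ± 259 in cold HIF2α AKO mice (SD, n = 3). Epas1, which encodes HIF2α, was at 360 ± 76.7, 348 ± 53.8, 627 ± 101 and 826 ± 138 CPM in the same order (SD, n = 3). Libraries labelled HIF2α AKO thus held no fewer Epas1 reads in cold, and at TN the means differed by less than the SD. These reads are summed over the whole gene and all cells of the tissue. The authors report lower Hif2a mRNA in adipose tissue of the knockout mice by RT-qPCR. Genotypes are given here as labelled. Skeletal muscle genes summed to 1336 CPM in TN HIF2α AKO replicate 2 and 1060 CPM in cold HIF2α AKO replicate 1, against at most 80.6 CPM elsewhere. Epithelial genes summed to 200 CPM in TN WT replicate 3, against at most 10.3 CPM elsewhere. Results that rest on these 3 libraries are therefore also given without them.

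In cold-exposed iWAT, none of the 6 markers with enough reads to test rose. Averaged over both genotypes, the beige marker Tmem26 and the brown marker Epsti1 fell, to 0.584 and 0.668 times their TN levels, where 24.0% of all tested genes were called lower and 24.8% higher. The Epsti1 call was lost when any of 5 single libraries was left out. Tbx1 and Lhx8 had averaged changes of 0.04 and -0.09 on the log2 scale that did not pass the test. Cited1 varied over a wide range within most groups, and Zic1 was at the limit of detection. Between the genotypes, no marker passed the test at either temperature. Over the same cold exposure, the thermogenic genes all rose, and so did most other genes proposed as beige or brown markers.

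The 7 genes lie on 7 different chromosomes in the GRCm38 annotation, and all are protein coding. Cited1 is at chrX:102247381-102252181, Tbx1 at chr16:18580979-18590671, Tmem26 at chr10:68723646-68782650 and Tnfrsf9 at chr4:150914562-150946102. Among the brown markers, Zic1 is at chr9:91358058-91365810, Lhx8 at chr3:154306294-154330659 and Epsti1 at chr14:77904239-78002657. Their exons cover between 1754 bases in Cited1 and 5693 bases in Zic1. Zic1 shares 60 exonic bases with Zic4, which runs on the opposite strand, and Camta1 overlaps Tnfrsf9 on the opposite strand without sharing exonic bases.

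Since the markers differ in where they are used, the 250 bases before the start of 3 of them are shown, from RefSeq on GRCm38.p6 and in the direction of transcription. Tmem26 (chr10:68723496-68723745, plus strand) and Epsti1 (chr14:77903989-77904238, plus strand) are the members that fell in cold, and Zic1 (chr9:91365769-91366018, minus strand) is the member at the limit of detection. Capitals mark CG dinucleotides.
Tmem26: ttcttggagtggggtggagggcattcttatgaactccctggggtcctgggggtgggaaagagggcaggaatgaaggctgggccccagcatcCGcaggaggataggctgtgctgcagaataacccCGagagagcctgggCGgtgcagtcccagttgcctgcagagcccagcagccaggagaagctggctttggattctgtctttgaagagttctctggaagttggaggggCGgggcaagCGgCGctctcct
Epsti1: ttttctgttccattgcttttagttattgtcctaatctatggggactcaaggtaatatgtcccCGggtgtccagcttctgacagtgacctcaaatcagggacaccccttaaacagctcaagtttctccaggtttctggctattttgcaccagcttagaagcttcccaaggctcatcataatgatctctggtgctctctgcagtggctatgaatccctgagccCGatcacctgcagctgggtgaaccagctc
Zic1: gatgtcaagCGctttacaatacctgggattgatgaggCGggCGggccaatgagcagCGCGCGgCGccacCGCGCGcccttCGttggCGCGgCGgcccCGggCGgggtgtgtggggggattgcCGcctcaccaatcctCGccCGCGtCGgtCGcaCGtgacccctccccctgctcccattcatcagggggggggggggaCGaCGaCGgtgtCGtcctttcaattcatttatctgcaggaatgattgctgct

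The window of Zic1 held 27 CG dinucleotides, that of Tmem26 held 6 and that of Epsti1 held 2, where the median over 32851 such windows was 6. GC content was 66.0, 60.8 and 48.4% in the same order, against a median of 52.4%. The core of the HIF binding motif was searched as ACGTG and GCGTG on both strands. ACGTG, present in 16.6% of all windows, occurred in those of Zic1, in 1 of 2 of Tbx1 and in 1 of 3 of Cited1. GCGTG, present in 28.2%, occurred in another window of Cited1. The core TGACG of the cAMP response element, present in 17.8%, occurred in 1 window each of Cited1 and Tbx1. No match to the interferon response element, GAAANN followed by GAAA, was found in the window of any member. Such matches describe the letters of these windows and are not binding sites.

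**Figure D1:**
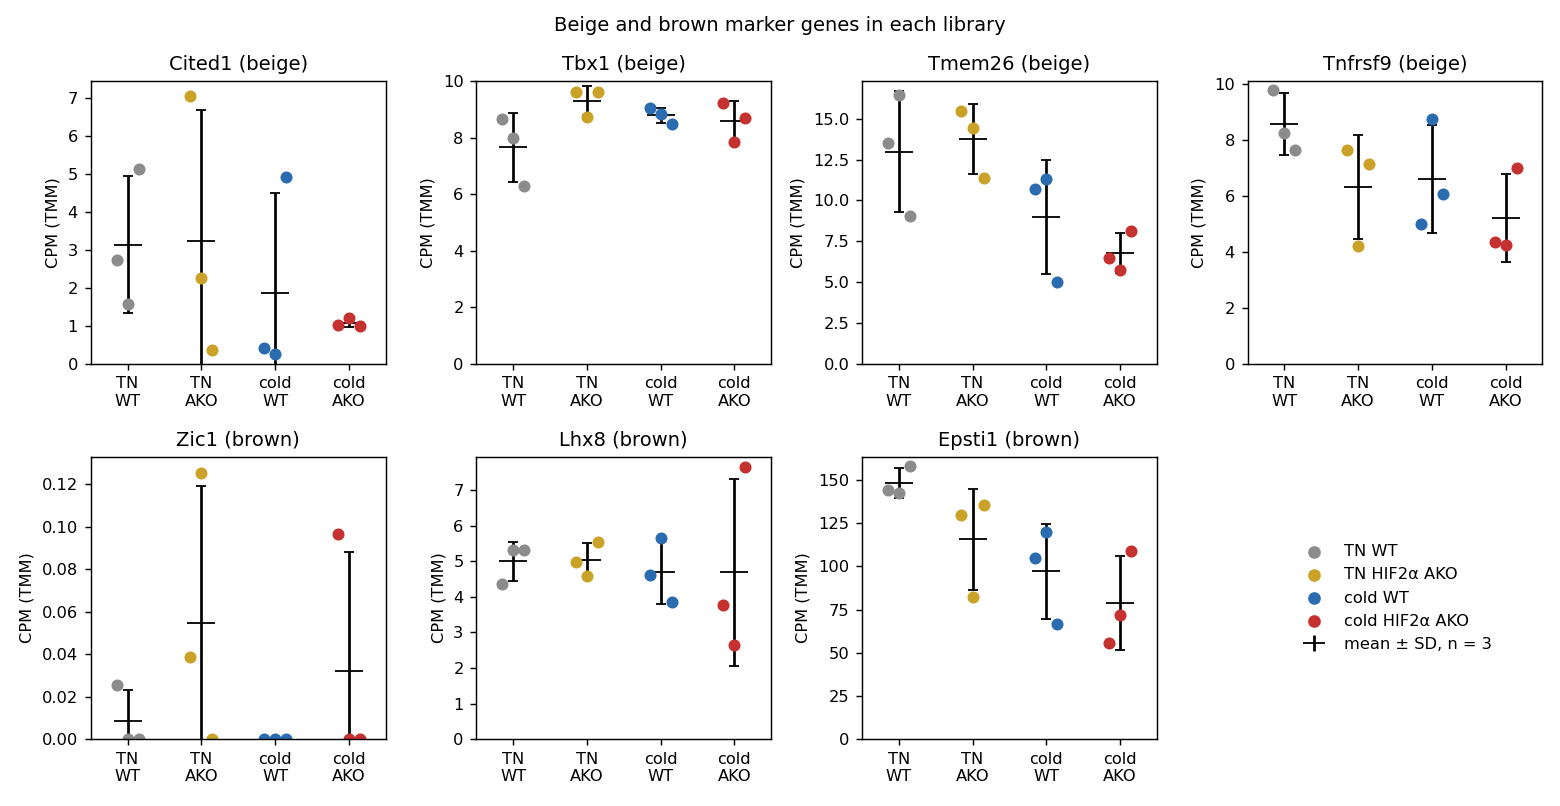
CPM after TMM scaling of each marker (y axis, separate scale per gene) in the 3 libraries of each group (x axis), with the mean and SD as black bars, cut at 0 where they would run below it. Tmem26 and Epsti1 sit lower in cold than at TN. Cited1 is spread over much of its range within groups other than cold HIF2α AKO, and Zic1 is at or near 0 everywhere.

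Among the beige markers, Tmem26 encodes a transmembrane protein that has been used as a surface marker of beige precursors. It was at 13.5, 16.4 and 9.03 CPM in TN WT mice. In cold WT mice it was at 10.7, 11.3 and 4.99 CPM. In mice labelled HIF2α AKO, it was at 15.5, 14.4 and 11.4 CPM at TN and at 6.49, 5.75 and 8.13 CPM in cold. All 3 cold mice were thus below all 3 TN mice within HIF2α AKO, whereas the WT groups overlapped, since TN WT replicate 3 lay below 2 of the cold WT mice.

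Averaged over both genotypes, Tmem26 fell by 0.78 on the log2 scale in cold (SE 0.21, 95% interval -1.25 to -0.30, edgeR's quasi-likelihood test, adjusted p = 0.0129). By exact permutation of the 6 cold and 6 TN mice, p was 0.00866 (two-sided), where the smallest possible value is 0.00216. Within HIF2α AKO it fell by 1.02 (SE 0.31, adjusted p = 0.0324), and within WT the change was -0.53 (SE 0.30, adjusted p = 0.208). The difference between the genotypes in this change was -0.49 (95% interval -1.43 to 0.45, adjusted p = 1), so the change is not shown to differ between them. The averaged call held with each library left out, with an adjusted p between 0.00632 and 0.0334, and was -0.84 (adjusted p = 0.0257) without the 3 libraries with muscle or epithelial transcripts. By contrast, the call within HIF2α AKO was lost without cold replicate 1 (adjusted p = 0.106), cold replicate 2 (0.0980), TN replicate 1 (0.107) or TN replicate 2 (0.0596), and also without those 3 libraries (0.115).

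Tnfrsf9 encodes a costimulatory receptor of the TNF receptor family that is best known from activated T cells and NK cells. Its level was 9.80, 8.26 and 7.64 CPM in TN WT and 5.01, 8.76 and 6.07 CPM in cold WT mice. In HIF2α AKO mice, it was 7.63, 4.21 and 7.14 CPM at TN and 4.36, 4.26 and 7.01 CPM in cold. The temperature groups overlapped within both genotypes, and all 3 TN HIF2α AKO mice were below all 3 TN WT mice, the nearest pair at 7.63 and 7.64 CPM. The averaged change in cold was -0.32 (95% interval -0.77 to 0.12, adjusted p = 0.198).

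Tbx1, a transcription factor of the T-box family, was the steadiest marker. It was at 8.68, 7.98 and 6.31 CPM in TN WT, and at 9.62, 8.73 and 9.61 CPM in TN HIF2α AKO mice. Cold WT mice had 9.04, 8.84 and 8.49 CPM, and cold HIF2α AKO mice 9.25, 7.84 and 8.69 CPM. Its highest library was 1.53 times its lowest, and its SD within groups was 0.140 on the log2 scale, where the median over the tested genes was 0.221. The averaged change in cold was 0.04 with a 95% interval from -0.17 to 0.25. For the average over both genotypes, this leaves room for at most a 1.19-fold rise or a fall to 0.888 times the TN level. Within WT the change was 0.20, with a 95% interval between 0.932 and 1.41 times the TN level. Within HIF2α AKO it was -0.12, with a 95% interval between 0.75 and 1.13 times that level. The change is not shown to differ between the genotypes (difference -0.31, 95% interval -0.74 to 0.11).

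Cited1, a transcriptional coactivator that has been used to mark beige adipocytes induced by cold, was the least steady. It was at 2.72, 1.58 and 5.11 CPM in TN WT, and at 7.05, 2.26 and 0.353 CPM in TN HIF2α AKO mice. In cold WT mice it was at 0.403, 0.256 and 4.91 CPM, and in cold HIF2α AKO mice at 1.02, 1.21 and 1.00 CPM. Except in cold HIF2α AKO, single mice of a group differed more than the group means did. Its highest library was 27.5 times its lowest. The SD within groups was 1.53 on the log2 scale, higher than in 99.6% of the tested genes. These levels rest on between 6 and 181 reads per library.

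The averaged change of Cited1 in cold was -1.16, with a 95% interval from -2.80 to 0.49 (adjusted p = 0.217). This interval holds a fall to 0.143 and a rise to 1.40 times the TN level. Cold WT replicate 3 decides it, since without that library the change was -2.40 (adjusted p = 0.0191). The value also rests on TN HIF2α AKO replicate 1, without which it was -0.52 (adjusted p = 0.585).

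Among the brown markers, Zic1, a zinc-finger transcription factor of neural and somitic lineages, had 8 reads over all 12 libraries and failed the filter on low counts. It had 4 reads in TN HIF2α AKO replicate 2, 2 reads in cold HIF2α AKO replicate 1 and 1 read each in TN HIF2α AKO replicate 1 and TN WT replicate 1. The other 8 libraries had 0 reads, which allows up to between 0.102 and 0.134 CPM in a library. The 2 highest were the libraries with skeletal muscle transcripts. Its groups were at or near the limit that 0 reads allow, so no fold change is given. The exact permutation test of the 6 cold and 6 TN mice gave p = 0.576, and without the filter edgeR's p for that contrast was 0.334, which at these counts says little about a difference. Zic2, Zic4 and Zic5, of the same family, had between 0 and 3 reads over all libraries.

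Lhx8, a LIM homeobox transcription factor, was detected at low counts in all mice. It was at 4.35, 5.31 and 5.32 CPM in TN WT and at 4.98, 4.58 and 5.55 CPM in TN HIF2α AKO mice. Its levels were 4.61, 5.64 and 3.86 CPM in cold WT and 3.78, 2.65 and 7.65 CPM in cold HIF2α AKO mice, so that the widest spread was in the last group. The averaged change in cold was -0.09, with a 95% interval from -0.59 to 0.40 (adjusted p = 0.750). Of the 10 LIM homeobox genes listed, Lhx2, Lhx6 and Lhx8 passed the filter, and 0 were called in edgeR, with averaged changes of 0.24, -0.16 and -0.09.

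Epsti1, which is induced by interferon and is also expressed by immune cells, was the most abundant marker. It was at 144, 142 and 158 CPM in TN WT and at 105, 120 and 66.5 CPM in cold WT mice. In HIF2α AKO mice, it was at 130, 82.2 and 135 CPM at TN and at 55.7, 71.8 and 109 CPM in cold. All cold WT mice were below all TN WT mice, while the HIF2α AKO groups overlapped through TN replicate 2 and cold replicate 3.

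Averaged over both genotypes, Epsti1 fell by 0.58 in cold (SE 0.19, 95% interval -1.01 to -0.16, adjusted p = 0.0288). The exact permutation test of 6 mice against 6 gave p = 0.0325. Within WT the change was -0.61 (SE 0.27, adjusted p = 0.123), and within HIF2α AKO it was -0.55 (SE 0.27, adjusted p = 0.144). The averaged call was lost without cold HIF2α AKO replicate 1 (adjusted p = 0.0652) or 2 (0.0639), cold WT replicate 3 (0.0601), or TN HIF2α AKO replicate 1 (0.0645) or 3 (0.0678). Without the 3 libraries with muscle or epithelial transcripts, it was -0.56 (adjusted p = 0.0379).

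These calls were read against all 15306 tested genes, of which the median averaged change was -0.05. In the averaged contrast, 48.8% of the genes were called, 24.0% lower and 24.8% higher in cold. Of the 6 markers tested, 2 were called lower and 0 higher, so the share lower was near that of all genes. Voom called 3 markers among 8363 genes called (4104 lower), and DESeq2 called 2 among 8084 (3943 lower), all of these markers lower. Both methods called more genes than edgeR, which called 7467. Within WT, 21.3% of genes were called, 5.68% lower and 15.6% higher. There, edgeR called 0 markers, 1 of which had an unadjusted p under 0.05 (38.9% of all genes did), and DESeq2 on all libraries and voom also called 0. Within HIF2α AKO, 27.0% of genes were called, 11.5% lower and 15.6% higher, and 1 marker was called, lower. For 1 marker in each genotype, all cold mice were below all TN mice, against 19.2% of the tested genes in WT and 25.6% in HIF2α AKO. Over both genotypes this held for 0 markers, against 8.50% of genes.

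**Figure D2:**
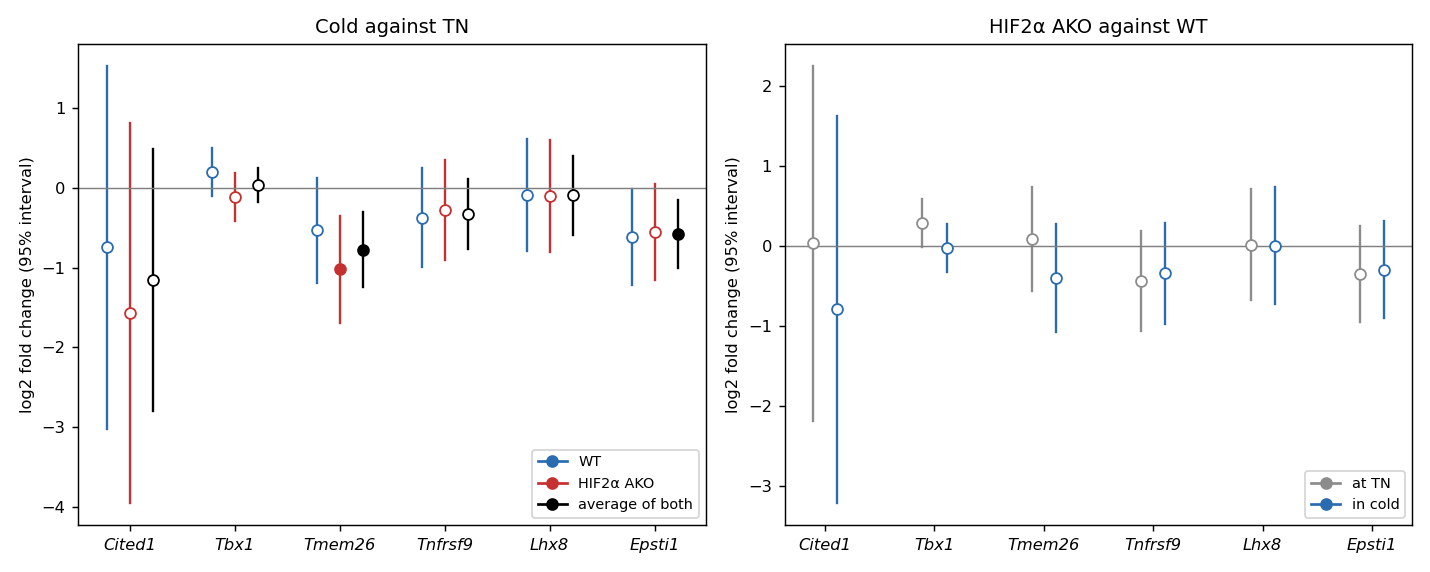
Log2 fold change with its 95% interval (y axis) for the 6 markers tested (x axis), with cold against TN on the left and HIF2α AKO against WT on the right. Filled points passed an adjusted p of 0.05 and open points did not. Tmem26 and Epsti1 hold the filled points, all below 0 on the left.

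To compare the markers with each other, CPM were divided by the length of the exons. Per kilobase (kb), Epsti1 was at 63.8 ± 3.7 in TN WT, 49.8 ± 12.6 in TN HIF2α AKO, 41.8 ± 11.8 in cold WT and 33.9 ± 11.7 in cold HIF2α AKO mice (SD, n = 3). In all 12 libraries it stood far above the other markers, whose means lay between 0.613 and 3.15 CPM per kb, Zic1 left out. In TN WT mice, the order below Epsti1 was Tnfrsf9 (3.15 ± 0.410), Tmem26 (2.46 ± 0.707), Tbx1 (2.18 ± 0.347), Lhx8 (1.97 ± 0.219) and Cited1 (1.79 ± 1.03). Neighbours in this order overlapped in their ranges over mice, with the exception of Epsti1 and Tnfrsf9. In cold HIF2α AKO mice, the order was Tbx1 (2.44 ± 0.202), Tnfrsf9 (1.91 ± 0.573), Lhx8 (1.85 ± 1.04), Tmem26 (1.29 ± 0.231) and Cited1 (0.613 ± 0.0650). There, Tmem26 lay above Cited1 in all mice, and the other neighbours overlapped below Epsti1. Zic1 was at most 0.0221 CPM per kb in any library.

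**Figure D3:**
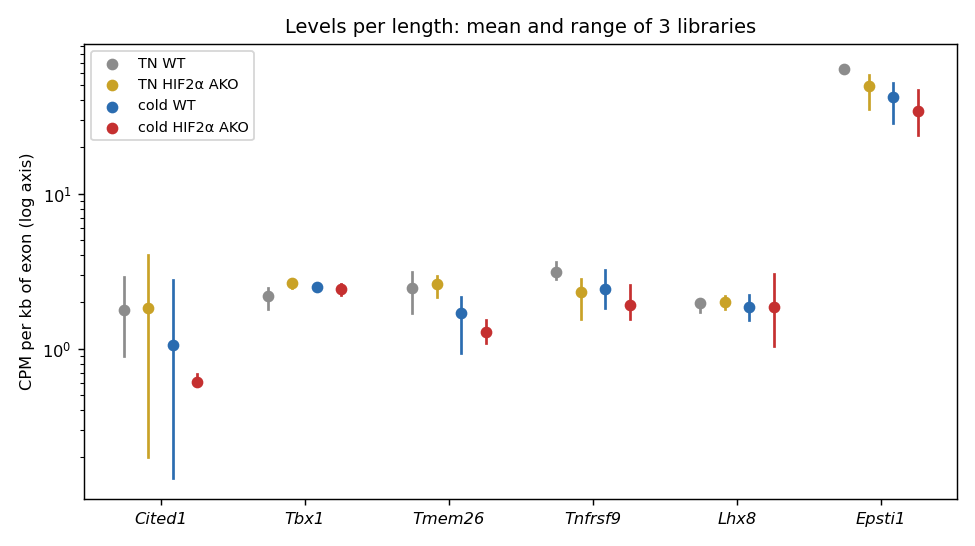
CPM per kb of exon (log y axis) of the 6 markers other than Zic1 (x axis), with the mean of each group as a point and the range over its 3 libraries as a line. Epsti1 lies between 24.0 and 68.0 CPM per kb, and the other markers lie between 0.146 and 4.02.

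Summed per kb, the 4 beige markers reached between 9.22 and 10.2 in TN WT and between 6.66 and 8.39 in cold WT mice. In mice labelled HIF2α AKO, they reached between 7.71 and 12.5 at TN and between 5.57 and 7.16 in cold. On this scale the sums of all cold mice were below those of all TN mice within both genotypes. Of single tested genes, 19.2% in WT and 25.6% in HIF2α AKO were lower in all cold mice. Sums of CPM not divided by length overlapped in WT, with 28.1 CPM in the lowest TN and 29.2 CPM in the highest cold mouse. The 3 brown markers summed to between 25.5 and 70.1 over all libraries, nearly all of it Epsti1. With Epsti1 left out, the brown sum was between 1.05 and 3.02 CPM per kb, and the beige sum was between 2.37 and 6.32 times as high. That brown sum is nearly all Lhx8, while the beige sum adds 4 genes, so the ratio depends on the number of genes. In TN WT, the means of single beige markers lay between 1.79 and 3.15 CPM per kb, against 1.97 for Lhx8.

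Whether the markers depended on adipocyte HIF2α was compared at each temperature. In cold, edgeR called 0 of the 6 markers between HIF2α AKO and WT, with 0 at an unadjusted p under 0.05 against 2.95% of all genes, and DESeq2 and voom also called 0. Over all genes, 0.00653%, or 1 gene, was called. The groups did not overlap for 0 markers, against 7.53% of genes. At TN, edgeR, DESeq2 and voom again called 0 markers, against 0.00653% of genes, with 0 at an unadjusted p under 0.05 against 2.91%. At TN the groups did not overlap for 3 of the 6 markers, against 7.69% of genes. Those were Tbx1, higher in HIF2α AKO, and Tnfrsf9 and Epsti1, lower in HIF2α AKO, each with an exact permutation p of 0.1, the smallest that 3 mice against 3 can give. The lowest TN values of Tnfrsf9 (4.21 CPM) and Epsti1 (82.2 CPM) were in HIF2α AKO replicate 2, the library with muscle transcripts. That of Tbx1 (6.31 CPM) was in WT replicate 3, the library with epithelial transcripts. Groups that do not overlap stay apart when a library is left out, so leaving these out could not test their part. With plain library sizes or RLE factors in place of TMM, Tbx1 and Tnfrsf9 overlapped between the genotypes at TN and Epsti1 did not.

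The precision of these comparisons differed between the markers. At TN, Tbx1 changed by 0.28 in HIF2α AKO, with a 95% interval from -0.02 to 0.58. For Epsti1 the values were -0.36 (-0.96 to 0.24) and for Tnfrsf9 -0.44 (-1.06 to 0.18). In cold, the interval was narrowest for Tbx1, from -0.33 to 0.27, or between 0.794 and 1.20 times the WT level. It was widest for Cited1, from -3.21 to 1.62, or between 0.108 and 3.07 times the WT level. For Tmem26 in cold the change was -0.40 (-1.08 to 0.27), for Tnfrsf9 -0.34 (-0.97 to 0.29), for Lhx8 0.00 (-0.73 to 0.73) and for Epsti1 -0.30 (-0.90 to 0.30). The interaction of genotype and temperature was called in 0% of all genes by edgeR, DESeq2 and voom, with 0 markers at an unadjusted p under 0.05 against 2.14% of genes in edgeR.

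Other genes proposed as markers of the same cells moved differently. All 8 thermogenic genes rose in cold on the averaged contrast, with a median change of 5.24, from Prdm16 (1.02), a regulator of the brown fat programme, to Ucp1 (12.0), the uncoupling protein. Ucp1 went from 0.432 ± 0.222 to 2638 ± 752 CPM in WT and from 1.77 ± 1.80 to 4695 ± 1040 CPM in HIF2α AKO mice (SD, n = 3). Of 11 other beige markers, 10 were tested, 6 rose and 2 fell. Fgf21, a secreted metabolic hormone, rose by 3.58, P2rx5, a purinergic receptor, by 2.04 and Slc27a1, a fatty acid transporter, by 1.81. Sp100, an interferon-induced nuclear protein, fell by 0.66 and Cd40, a receptor of B cells and antigen-presenting cells, fell by 0.60. The median over the tested other beige markers was 0.75.

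Of 14 other brown markers, 12 were tested, 8 rose and 1 fell, with a median of 1.03. Cpn2, a carboxypeptidase subunit, rose by 6.06, Pdk4, which restrains glucose oxidation, by 3.85 and Oplah, an enzyme of glutathione turnover, by 2.29. Meox1, a homeobox gene of the somites, fell by 0.41. Myf5, a gene of the muscle lineage, had 0 reads in all 12 libraries, and Sim1 had 21 reads in all. Of 12 white adipocyte markers, 11 were tested, 5 rose and 0 fell in edgeR, with a median of 0.56. Retn, which encodes resistin, rose by 0.98, Hoxc10 by 0.97 and Wfdc21, listed under an older symbol, by 0.89. The lists were put together from general knowledge of these cells with earlier results of these data known, so their counts are a description.

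**Figure D4:**
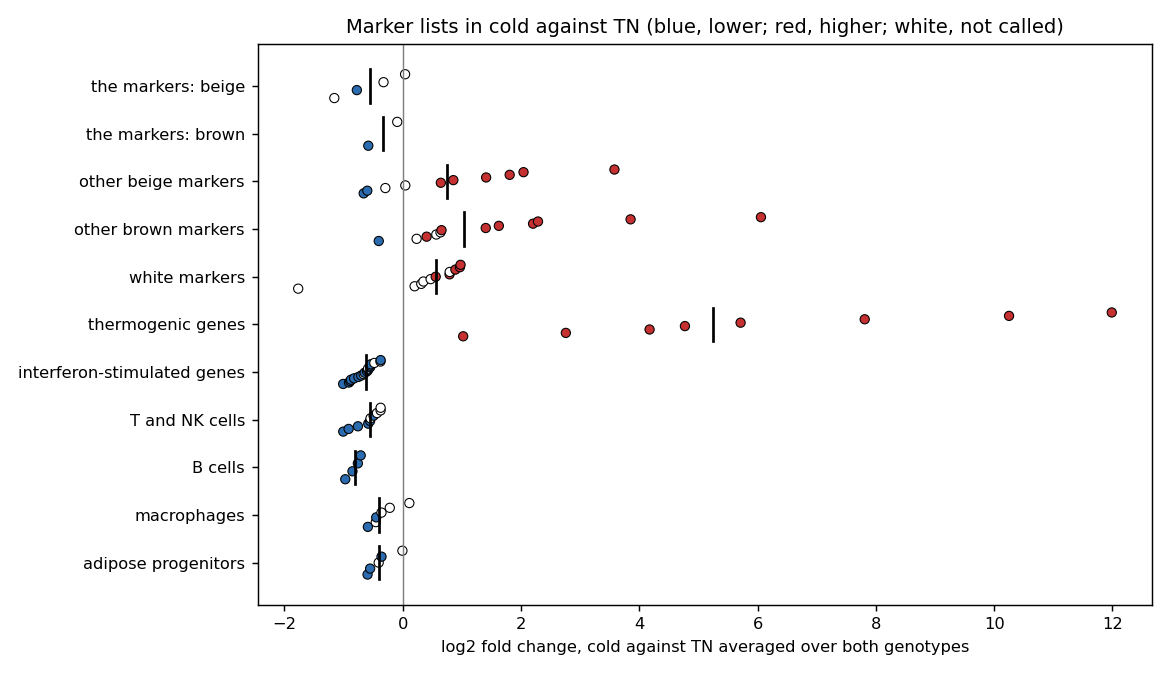
Log2 fold change in cold against TN averaged over both genotypes (x axis) for the tested genes of each list (y axis), with blue points called lower, red points called higher, white points not called and a black line at the median. The beige and brown markers under study lie between -1.16 and 0.04, while the other beige and brown markers reach 3.58 and 6.06.

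Families of the markers were examined in the same contrast. Cited2, a coactivator that competes with HIF for its partner, fell by 0.68 (adjusted p = 1.3e-05), and by 0.81 within WT and 0.55 within HIF2α AKO, whereas Cited4 changed by -0.52 (adjusted p = 0.381). Of 9 T-box genes, 7 were tested. Tbx5, Tbx2 and Tbx15 rose by 0.51, 0.50 and 0.36, and Tbx21, the regulator of type 1 T cells and NK cells, fell by 0.54. All 14 genes of the TNF receptor family were tested, of which 3 rose and 5 fell. Tnfrsf12a, the receptor for TWEAK, rose by 1.02 and Ltbr, the lymphotoxin receptor, by 0.56, while Cd27, a receptor of lymphocytes, fell by 0.62. Tnfsf9, the ligand of Tnfrsf9, changed by -0.51 (adjusted p = 0.140).

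Several markers are also expressed by cells other than adipocytes, so the levels of other cell types were set beside them. In bulk tissue, fewer cells of a type and less RNA per cell cannot be told apart. Of 10 tested T and NK cell genes, 6 fell and 0 rose in edgeR on the averaged contrast, with a median of -0.55, led by Klrb1c (-1.01) and Ncr1 (-0.91). Their summed level was between 432 and 505 CPM in TN WT, between 298 and 491 in TN HIF2α AKO, between 267 and 424 in cold WT and between 217 and 412 in cold HIF2α AKO mice. All 4 B cell genes fell, with a median of -0.80, led by Ms4a1 (-0.97). Their sum was between 592 and 1020 CPM in TN WT and between 305 and 552 CPM in cold WT, and between 644 and 1045 CPM and between 336 and 556 CPM in HIF2α AKO mice at TN and in cold.

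Of 6 macrophage genes, C1qa (-0.59) and Mrc1 (-0.45) fell and 0 rose in edgeR. The macrophage sum was between 583 and 1124 CPM in TN WT, between 1059 and 1140 in TN HIF2α AKO, between 644 and 1079 in cold WT and between 662 and 684 in cold HIF2α AKO mice. Of 5 genes of adipose progenitors, Ly6a (-0.59), Dpp4 (-0.55) and Cd34 (-0.36) fell. Among 18 interferon-stimulated genes, 14 fell and 0 rose in edgeR, with a median of -0.62, led by Ifi44 (-1.01), Oas1a (-0.91) and Oasl2 (-0.89). Of 7 adipocyte genes, 5 rose, among them Pnpla2, the lipase that starts lipolysis, by 1.76, and their sum was between 13096 and 31107 CPM at TN and between 28336 and 53754 CPM in cold. No defining gene of these immune lists was at 0. The part of these cell types in the changes of Tmem26 and Epsti1 was not tested.

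Within groups, Epsti1 varied with the T and NK cell genes. The correlation of its deviations from the group means with those of their summed log2 level was 0.93 over the 12 libraries, which share their scaling. For Tnfrsf9 it was 0.89 and for Lhx8 0.73. With the interferon-stimulated genes, the B cell genes and the macrophage genes, Epsti1 gave 0.71, 0.58 and 0.15. Tmem26 followed the macrophage sum (0.79), the progenitor sum (0.74) and the B cell sum (0.71) more closely than the T and NK cell sum (0.50), as a description of these libraries. For Tbx1 the macrophage sum gave 0.73, and Cited1 stood apart with -0.39 for T and NK cells and -0.54 for macrophages. With the summed adipocyte genes the values were opposite in sign, at -0.69 for Tmem26, -0.59 for Epsti1 and -0.56 for Tnfrsf9. With the summed thermogenic genes, the deviations of the 6 markers gave values between -0.34 and -0.02.

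**Figure D5:**
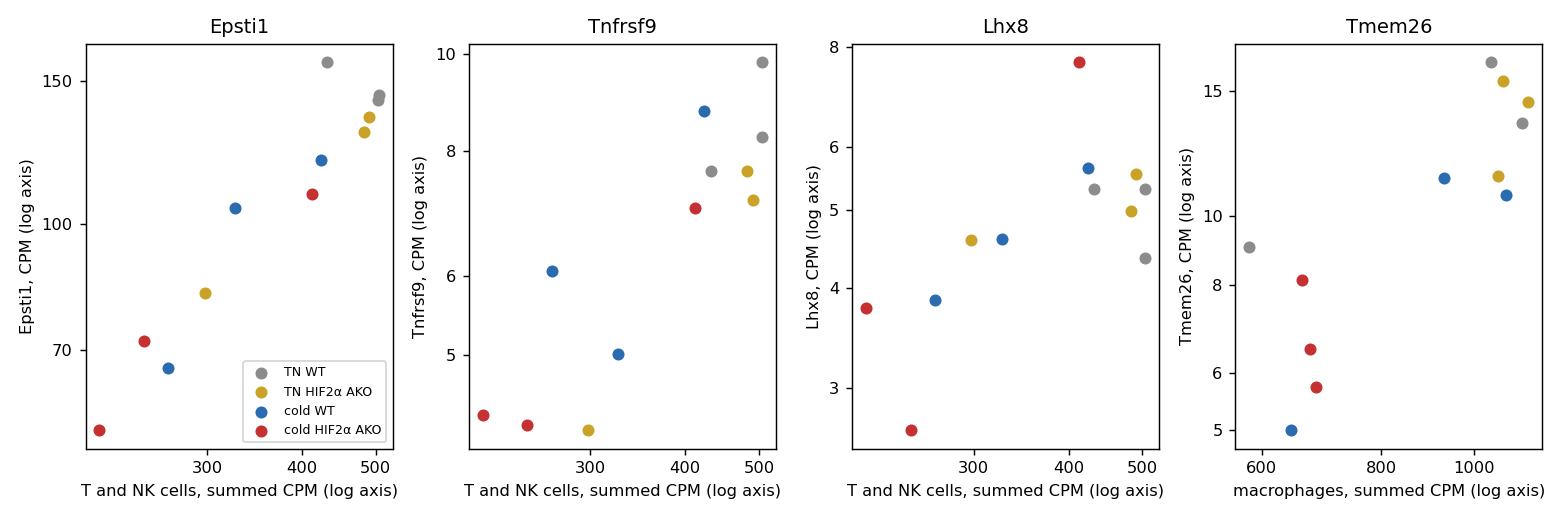
CPM (log y axis) of Epsti1, Tnfrsf9 and Lhx8 against the summed CPM of T and NK cell genes, and of Tmem26 against that of macrophage genes (log x axis), with 1 point per library coloured by group. Epsti1 is mostly lower in libraries with lower sums of T and NK cell genes. TN WT replicate 3 departs from this, with the highest Epsti1 (158 CPM) at the lowest sum of TN WT (432 CPM).

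The genes whose log2 CPM were most like each marker over the 12 libraries were also listed. For Epsti1 they were Ccr7 (r = 0.99), the homing receptor of naive T cells and mature dendritic cells, Zmynd15 (0.99) and Arl4c (0.99). Tmem26 was most like B3galnt2 (0.97), Mst1 (0.96) and Lyz2 (0.96), the lysozyme of macrophages. For Tnfrsf9 the highest were Nipal1 (0.95), Cyp2s1 (0.94) and Dapl1 (0.94), and for Lhx8 they were Bcdin3d (0.90), Gm20939 (0.89) and Rpl31 (0.87). Cited1 was most like Rhou (0.94), Utp11l (0.88) and Hsp90ab1 (0.86), and Tbx1 was most like Map3k15 (0.86), Sprtn (0.85) and Mtf1 (0.84). Thermogenic genes were not among these. Among the markers themselves, Epsti1 and Tnfrsf9, a brown and a beige marker, were most alike (0.82, and 0.72 for deviations from the group means). In the same order, the brown pair Epsti1 and Lhx8 gave 0.62 and 0.69. Of the beige pairs, Tmem26 and Tnfrsf9 gave 0.47 and 0.27, Tbx1 and Tmem26 gave 0.20 and 0.51, and Cited1 and Tmem26 gave 0.00 and -0.50.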

How the data were processed

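The authors trimmed reads with Trim Galore 0.4.4, aligned them to GRCm38 with STAR 2.6.1d, counted them with HTSeq 0.13.5 and, per the labels, used DESeq2 1.30.0. The annotation and strand setting are not given in the sources used here. The deposited values are raw read counts per gene, in a table of all libraries and in 12 tables of single samples that held the same counts. Its 5 tallies of reads outside genes made up 21.9 to 27.0% of the reads listed and were left out.

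Counts were fitted with edgeR 4.0.16 (R 4.3.3) as 1 factor of 4 groups, with TMM, filterByExpr (minimum count 10, minimum total 15) and the quasi-likelihood F test. P-values were adjusted by Benjamini-Hochberg over 15306 genes with a limit of 0.05. The fit was tested on simulated data. Log2 CPM used a prior count of 2. Exact permutation tests were two-sided. A count of 0 allows up to 3 reads, for counting error only. Libraries of a group were taken as separate mice, so p-values set differences between groups against the spread between these samples.

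Named were the 7 members, the 3 genes most correlated with each, and up to 3 called genes with the largest change per list, with others named to give the genes that fell or were at the limit. The members and lists were chosen with earlier results of these data known. Exon lengths came from GENCODE M21 and promoters from RefSeq. Alternatives were normalization, filter, DESeq2 1.42.0, limma voom 3.58.1, the libraries fitted, thresholds, a replicate block and each library left out. Leaving out the 3 libraries with muscle or epithelial transcripts was chosen after seeing the data. Same-numbered replicates are not shown to pair.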

Additional observations from a re-analysis of the deposited data

How the results depend on the processing

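Of the values compared under the alternatives, 381 kept their direction and their side of the threshold, 12 came past it, 21 fell short of it and 18 changed sign, with each library left out counted separately. For all that changed, the cause was not tested unless named. In cold against TN averaged over both genotypes, leaving out 1 library gave 1 to 2 markers called, with 5867 to 7773 genes called. Voom gave 3 markers, with 8363 genes called. With the replicate number as a block, 1 marker was called, since Epsti1 was at -0.58 with an adjusted p of 0.0503. The numbers are not shown to pair mice, since 5 of 18 same-numbered pairs had deviations correlated above 0.1 (range -0.43 to 0.39), and the block changed no other call.

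Within HIF2α AKO, leaving out 1 library gave 0 to 2 markers called, with 1613 to 4155 genes called. Voom gave 2 markers, with 6140 genes called. Without the 3 libraries with muscle or epithelial transcripts, 0 markers and 1834 genes were called. Within WT, DESeq2 on the compared groups called 1 marker, Epsti1 (-0.62, adjusted p = 0.0371). It called 3531 genes there, where edgeR on all libraries called 3259. Looser limits needed a change of more than 0.2 on the log2 scale in either direction and only p below 0.15 before adjustment. With these, 2 markers passed within WT (52.5% of all genes did), 2 within HIF2α AKO (54.6%) and 3 in the averaged contrast (59.9%). Between genotypes, 0 passed in cold (8.98%) and 2 at TN (8.63%). In the interaction 1 passed, Tbx1 (8.81%).

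The sign changes were of markers that were not called. For HIF2α AKO against WT in cold, Lhx8 was 0.0234 with RLE factors, 0.0295 without a filter, 0.0236 with DESeq2, 0.00061 with edgeR and 0.0061 with DESeq2 on the compared groups, 0.13 without the 3 libraries, and between -0.55 and 0.29 with 1 library left out. Tbx1 was 0.0017 without a filter and between -0.0885 and 0.0290 with 1 library left out. Cited1 was 1.26 with voom and between -1.29 and 1.70 with 1 library left out. In the averaged contrast, Tbx1 was -0.0472 with voom, -0.0712 without the 3 libraries and between -0.0206 and 0.0908 with 1 library left out, and Lhx8 was between -0.37 and 0.0504.

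Zic1 had 8 reads in all, too few to compare groups closely. Cited1 had between 6 and 181 reads per library and varied within groups, and the part of depth in its spread was not tested. Levels per kb rose when the longest transcript replaced the union of exons, since it is shorter.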
